A study of Drosophila melanogaster with 2 samples.

Results

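The enzymes of the tricarboxylic acid (TCA) cycle other than succinate dehydrogenase and oxoglutarate dehydrogenase were examined as 10 genes, given by a fixed list of gene symbols: kdn, mAcon1, Idh3a, Idh3b, Idh3g, Scsalpha1, ScsbetaA, ScsbetaG, Fum1 and Mdh2. All 10 were matched by symbol among 13968 protein-coding genes of the annotation. The data are chromatin immunoprecipitation sequencing (ChIP-seq) peak lists for CG1603, a transcription factor with zinc fingers that is known to act on nuclear genes for mitochondria. Whole *Drosophila melanogaster* embryos of mixed sex, 0 to 16 h of age, came from a transgenic line that stably carries CG1603 with GFP at its C-terminus. The study had 1 group of 2 biological replicates, labelled 2 and 3, and no untagged or other control embryos were analysed here. The antibody is given as anti-GFP in one label and as CG1603 in another. A whole embryo mixes all tissues, so a peak cannot be assigned to a cell type.

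The TCA cycle runs in the mitochondrial matrix, where it oxidises acetyl groups to carbon dioxide and passes the electrons to the respiratory chain as NADH and succinate. All of its enzymes are encoded in the nucleus and imported, so their supply depends on nuclear promoters. Drosophila carries a main, broadly expressed gene for most steps together with duplicated copies, several of which are known for expression in the testis.

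The authors deposited 30000 peaks for each replicate, 30000 for the pooled replicates and a reproducible list of 8963 peaks. Peaks were ranked within a list by the authors' signal value, rank 1 being the strongest. Read depth is unknown from peak lists. A gene was called bound where a reproducible summit, the highest point of a peak, lay within 500 bp of a transcription start site (TSS) of one of its coding transcripts. By this measure 9 of the 10 genes were bound, against 35.2% of all protein-coding genes, and mAcon1 was the exception. In the pooled list of 30000 peaks, at any rank, the same 9 had a promoter summit (47.0% of all genes). The strongest 8963 peaks of replicate 2 alone called the same 9 genes (34.3% of all genes), and so did those of replicate 3 (37.4%). A reproducible summit lay in the gene or within 2 kb of it for 10 of 10 genes, against 51.4% of all genes. This count depends on gene length, whose median was 3402.5 bp for the 10 genes and 2164.5 bp over all genes. The strongest promoter peaks of the 9 bound genes had ranks from 381 to 6545 with a median of 2342. The median over the 4919 bound genes of the genome was 3209. Of the 9, 8 were among the 4481 strongest peaks, where 65.3% of all bound genes had theirs. No test was made on these counts, since the genes were chosen as a list with earlier results of these data known.

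The sequences around some of the promoter summits are shown as examples, because they differ among genes of the same cycle. The windows span 50 bp to either side of the summit, on the release 6 (dm6) assembly from RefSeq, and read 5′ to 3′ on the strand of the gene. Capitals mark CGATA on either strand (TATCG on the other), the core bound by the insulator protein BEAF-32. It forms part of the DNA replication-related element (DRE), TATCGATA, in which a copy from each strand overlaps. Also searched but not printed were the windows of ScsbetaA, which held CGATA, and of ScsbetaG and kdn, which did not.
Fum1, rank 381, chrX:6679323-6679423, plus strand: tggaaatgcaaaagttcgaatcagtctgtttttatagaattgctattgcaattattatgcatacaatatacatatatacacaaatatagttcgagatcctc
Idh3b, rank 805, chr3R:22019202-22019302, minus strand: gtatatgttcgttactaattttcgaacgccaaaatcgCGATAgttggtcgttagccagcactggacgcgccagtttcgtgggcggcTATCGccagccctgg
Idh3a, rank 2103, chrX:19521957-19522057, minus strand: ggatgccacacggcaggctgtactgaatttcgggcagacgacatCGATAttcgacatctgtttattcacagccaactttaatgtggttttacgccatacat
Idh3g, rank 2183, chr3R:25680685-25680785, plus strand: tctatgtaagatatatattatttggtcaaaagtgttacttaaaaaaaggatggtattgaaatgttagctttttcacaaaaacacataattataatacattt
Scsalpha1, rank 2342, chr3L:3814141-3814241, plus strand: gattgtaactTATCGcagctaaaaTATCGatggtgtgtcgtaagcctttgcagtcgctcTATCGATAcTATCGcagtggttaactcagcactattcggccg
Mdh2, rank 4256, chr3R:18226073-18226173, plus strand: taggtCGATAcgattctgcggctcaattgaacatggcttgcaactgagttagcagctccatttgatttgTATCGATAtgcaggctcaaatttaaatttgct

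The 9 bound genes carried 11 reproducible promoter peaks, of which 10 were searched for motifs, at least 1 for each gene. Of these 10 windows 5 held CGATA, each at a different gene (Idh3a, Idh3b, Mdh2, Scsalpha1 and ScsbetaA). The same letters were in 35.3% of the 4193 reproducible summits at promoters, in 23.3% of all 8963 reproducible summits and in 47.3% of windows from 250 bp before to 50 bp after the most upstream TSS of every gene. Scsalpha1 held 5 copies counted over both strands, a number reached by 0.620% of promoter summits, and Mdh2 held 3, reached by 8.35%. The full DRE was in 2 of the 10 windows, those of Scsalpha1 and Mdh2, and in 8.87% of promoter summits. None of the 10 held GGTCACACT, known as core promoter motif 1 and recognised by M1BP, which 5.06% of promoter summits held. The E-box CAGCTG was in 1, at the inner kdn promoter (9.11% of promoter summits), and TATAAA in 1, at the stronger Fum1 peak (12.1%). GAGAGAG, GCGCATGC and CCGGAA, searched on both strands like the rest, were in 0 of the 10 windows and in 1.19%, 0.262% and 2.48% of promoter summits. The window of the strongest peak, at Fum1, held no CGATA. These counts depend on the length searched, and the whole peaks, 124 to 330 bp wide, were searched as an alternative chosen after seeing the data. CAGCTG was then in 5 of the 10 (kdn, Idh3b, Idh3g, Scsalpha1 and ScsbetaG) and in 19.6% of all promoter peaks. CGATA was in 7, with both kdn peaks added (53.4%), GGTCACACT in 1, at kdn (9.4%), and TATAAA in 2, at kdn and Fum1 (33.2%). The count for the DRE remained 2 (14% of all promoter peaks). GC content of the 10 windows ranged from 21.8% at Idh3g to 53.5% at Idh3b with a median of 43.6%, against a median of 40.6% over promoter summits. Repeat-masked sequence made up the largest part of the windows of Fum1 (45.5%) and Idh3g (38.6%), and its part in these peaks was not tested.

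Fum1 encodes fumarase, which hydrates fumarate to malate, and had the strongest promoter peak of the 10 genes. The gene lies on chromosome X, positions 6678424 to 6681845, plus strand. It starts at 2 sites, at 6678424 and at 6679640, and each had its own reproducible peak. The stronger peak had its summit 267 bp upstream of the inner TSS, within an intron of the longer transcript, with a signal of 1601.7. It ranked 425 in replicate 2 (signal 813.1) and 361 in replicate 3 (signal 788.8). The weaker peak lay 74 bp upstream of the outer TSS, with a signal of 191.3 and rank 7005. It had a partner of rank 6725 in replicate 3 and no overlapping peak in replicate 2, so only the peak of the inner site was found in both replicates.

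Both Fum1 peaks lay beside start sites of ND-ASHI, which encodes a subunit of respiratory complex I and is read in the opposite direction. The outer Fum1 TSS is 164 bp from the nearest upstream ND-ASHI TSS, and the inner one 522 bp from another. The stronger summit was 255 bp upstream of ND-ASHI and 267 bp upstream of Fum1, and the weaker one 90 and 74 bp upstream. A peak between divergent start sites cannot be assigned to either gene. Downstream of Fum1 follow Fum2, a second fumarase gene, and Pink1, the gene of a kinase known for mitochondrial quality control. Fum2 had no summit of any list within 500 bp of its TSS. At Pink1 replicate 3 had a peak of rank 7443 (signal 94.0) 1 bp from a TSS, and no other list had a peak there.

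**Figure D1:**
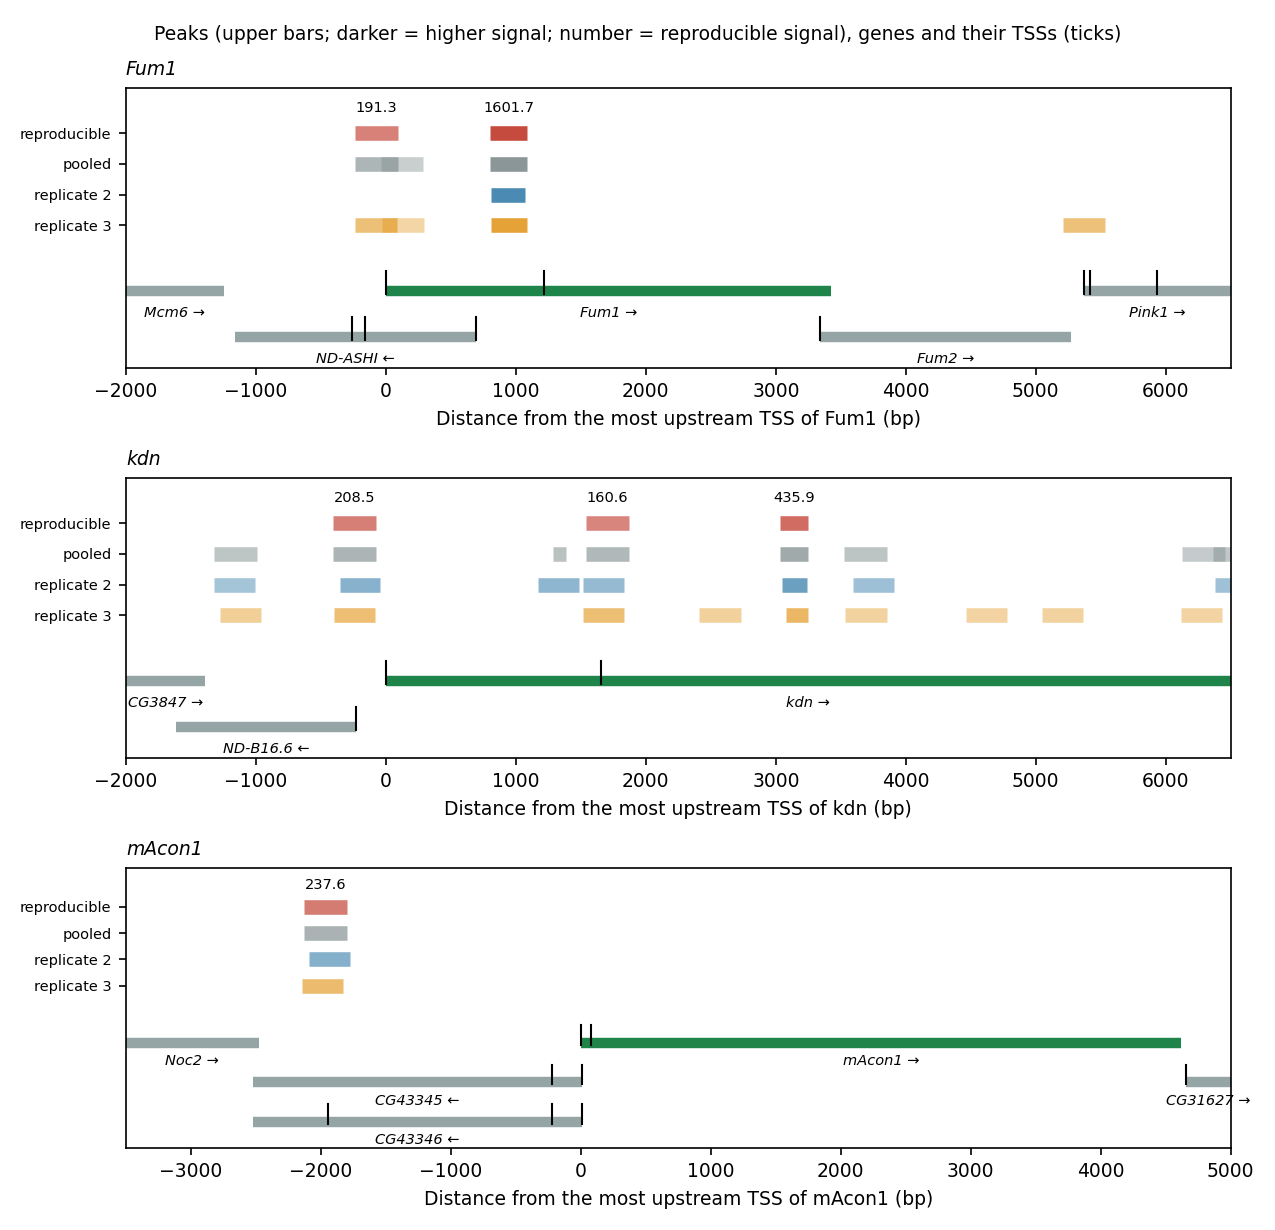
Maps of the Fum1, kdn and mAcon1 loci, with distance from the most upstream TSS of the gene in bp on the x axis, peaks of the 4 lists as upper bars and genes as lower bars with ticks at TSSs. The strong Fum1 peak (signal 1601.7) lies between an ND-ASHI start and the inner Fum1 start, kdn has 3 reproducible peaks, and at mAcon1 the nearest peak lies 1962 bp upstream.

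The 3 subunits of NAD-dependent isocitrate dehydrogenase, which converts isocitrate to oxoglutarate, were all bound, against 35.2% of all genes. Idh3b (chromosome 3R, positions 22016391 to 22019382, minus strand) had the second strongest promoter peak of the 10 genes, with a signal of 1027.9 and rank 805. It ranked 857 in replicate 2 (signal 521.3) and 737 in replicate 3 (signal 514.4). The summit lay in the 5′ untranslated region of the transcript with the outer TSS, 68 bp upstream of the inner TSS and 130 bp from the outer one. No other coding gene had a TSS within 500 bp, so this promoter peak was shared with none.

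Idh3a (chromosome X, positions 19518428 to 19521810, minus strand) had a peak of rank 2103 (signal 571.7), which ranked 2538 in replicate 2 (signal 260.3) and 1812 in replicate 3 (signal 312.1). Its summit was 197 bp upstream of Idh3a but 20 bp from a start site of the divergent CoRest gene, which encodes a chromatin corepressor. Idh3g (chromosome 3R, positions 25680845 to 25683780, plus strand) had a peak of rank 2183 (signal 556.4) 110 bp upstream of its TSS and 185 bp upstream of the divergent CG4743, also listed as Samc, the gene of a mitochondrial S-adenosylmethionine carrier. The replicates differed on this peak, which had rank 1497 in replicate 2 (signal 373.9) and 4111 in replicate 3 (signal 169.3). A second reproducible peak within 2 kb of Idh3g, of rank 1641, lay 17 bp upstream of the ribosomal protein gene RpL27 and ranked above the promoter peak of Idh3g itself.

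Succinyl-CoA synthetase splits succinyl-CoA and makes a nucleoside triphosphate. The alpha subunit pairs with a beta subunit that uses ADP (ScsbetaA) or GDP (ScsbetaG). All 3 of these genes were bound, against 35.2% of all genes. Scsalpha1 (chromosome 3L, positions 3814211 to 3818383, plus strand) had a peak of rank 2342 (signal 531.4) 20 bp upstream of its TSS, of rank 2494 in replicate 2 (signal 263.9) and 2282 in replicate 3 (signal 268.8). ScsbetaA (chromosome 3R, positions 8938724 to 8943027, plus strand) had one of rank 2649 (signal 485.0) 86 bp upstream, of rank 2573 in replicate 2 (signal 258.3) and 2844 in replicate 3 (signal 227.7). The ranks of these 2 subunits did not overlap over the replicates, although the nearest were 2494 and 2573. ScsbetaG (chromosome 3L, positions 5561701 to 5563691, minus strand) had a peak of rank 3150 (signal 425.8), of rank 4651 in replicate 2 (signal 156.5) and 2283 in replicate 3 (signal 268.7), a range that covers the ranks of ScsbetaA.

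Scsalpha1 and ScsbetaA shared their promoter peaks with no other coding gene. The ScsbetaG summit lay 39 bp upstream of ScsbetaG and 44 bp upstream of the divergent Sras, the gene of a CAAX prenyl protease. It was nearest to ScsbetaG in the reproducible list, but in each replicate the summit was nearer to Sras. Other reproducible peaks within 2 kb belonged to neighbours, one of rank 5162 lying 30 bp upstream of enc near Scsalpha1 and one of rank 4981 lying 7 bp upstream of bc10 near ScsbetaG.

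Mdh2 encodes mitochondrial malate dehydrogenase, which regenerates oxaloacetate. The gene (chromosome 3R, positions 18226396 to 18228718, plus strand) had a promoter peak of rank 4256 (signal 327.3), of rank 5739 in replicate 2 (signal 126.1) and 3199 in replicate 3 (signal 208.3). The summit was 273 bp upstream of Mdh2 and 41 bp upstream of the divergent CG7168. It was the least sharply placed of the set, the summits of the replicates lying 102 bp apart, against a median of 14 bp and a 90th percentile of 55 bp over 8751 reproducible peaks with a partner in both. A further reproducible peak of rank 6663 lay downstream of the gene, 4091 bp from the TSS and with no coding TSS within 500 bp.

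Citrate synthase, which joins acetyl-CoA to oxaloacetate at the entry of the cycle, is encoded by kdn (chromosome X, positions 6350629 to 6361323, plus strand). Its strongest promoter peak was the weakest among the strongest promoter peaks of the 9 bound genes. The peak at the outer TSS had rank 6545 (signal 208.5), with rank 7212 in replicate 2 (signal 96.6) and 6000 in replicate 3 (signal 118.7). Its summit was 241 bp upstream of kdn but 13 bp inside ND-B16.6, another complex I gene read in the opposite direction. The peak at the inner TSS, with its summit 53 bp downstream in the 5′ untranslated region, had rank 8082 (signal 160.6). It ranked 6419 in replicate 3 and 10578 in replicate 2, outside the strongest 8963 of that replicate. The strongest peak of the locus was intronic, 1489 bp downstream of the inner TSS, with rank 3049 (signal 435.9) and ranks of 2645 and 3488 in replicates 2 and 3. The gene is also the longest of the 10 at 10695 bp and held the most peaks of any rank with its 2 kb flanks, 8 in replicate 2 and 12 in replicate 3.

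mAcon1, the gene of mitochondrial aconitase, which isomerises citrate to isocitrate, had no promoter peak. The gene lies on chromosome 2L, positions 21168570 to 21173185, plus strand, with start sites at 21168570 and 21168651. The nearest reproducible summit was 1962 bp upstream, of rank 5774 (signal 237.6), and the nearest summits in replicates 2 and 3 were 1933 and 1989 bp away. That peak lay 16 bp inside the start of the shortest CG43346 transcript. No list held any other peak in mAcon1 or within 2 kb of it. Among the 9049 genes that were not bound, 70.6% likewise had no summit of any list within 500 bp. The start of mAcon1 is itself divergent, its inner TSS lying 70 bp from starts of CG43345 and CG43346. CGATA occurred in the window from 250 bp before to 50 bp after each of its start sites. Repeat-masked sequence made up 0.950% and 2.20% of the 1 kb to either side of them, below the 5.35% to 29.7% at start sites of the other 9 genes, and any part of this in the absence of a peak was not tested.

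**Figure D2:**
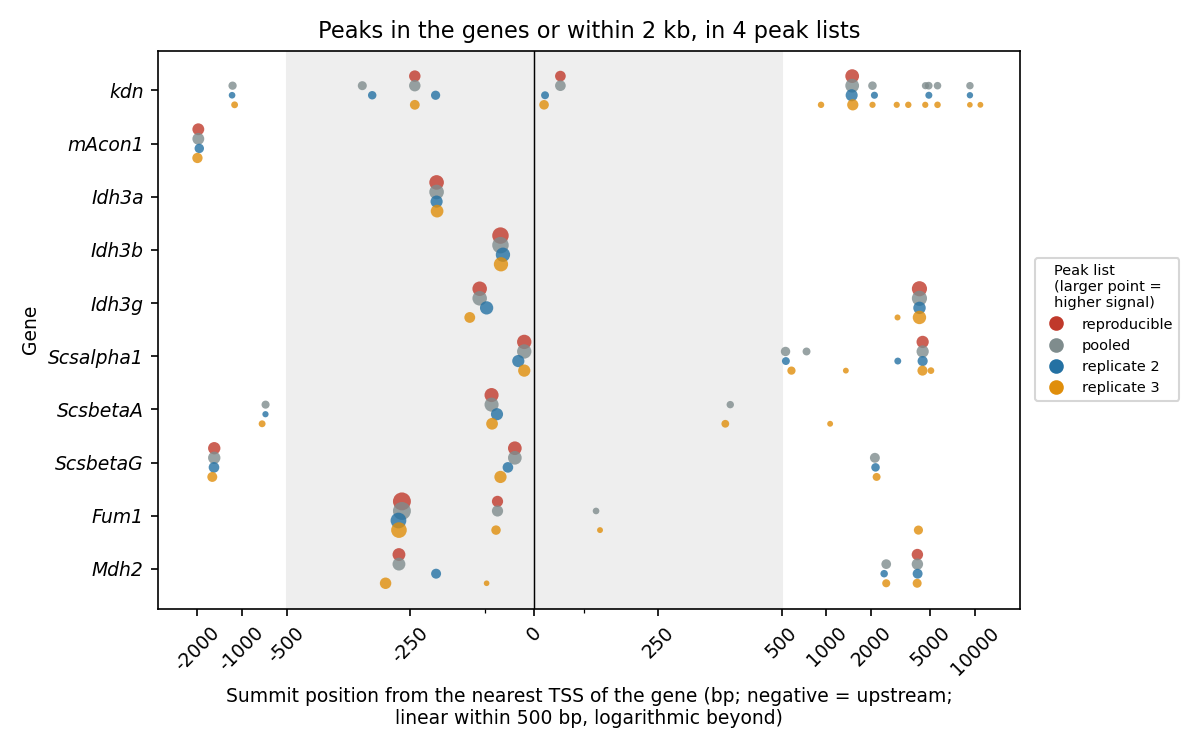
Position of every summit in the 10 genes or within 2 kb, in bp from the nearest TSS of the gene, with a row per gene, a colour per list and larger points for higher signal. The shaded band is 500 bp to either side of the TSS, where 9 genes have reproducible summits and mAcon1 has none.

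Start positions and summits were compared over the whole set. Of the 16 annotated start positions of the 10 genes, 14 had a reproducible summit within 500 bp, against 32.6% of the 19630 start positions of all genes, and the 2 without were those of mAcon1. The strongest promoter summit lay upstream of the nearest own TSS at 9 of 9 genes, as it did at 86.1% of all bound genes. Its median distance from the TSS was 110 bp, and 77 bp over all bound genes. More than 1 reproducible promoter peak was present at 2 of the 9, kdn and Fum1, and at 11.9% of all bound genes.

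A divergent coding neighbour starting within 500 bp was annotated for 7 of the 10 genes and for 27.3% of all genes, of which 59.6% were bound, while 26.1% of genes without such a neighbour were bound. Of the 9 bound genes, 6 had their strongest promoter peak within 500 bp of another coding gene's TSS (Fum1, Idh3a, Idh3g, ScsbetaG, Mdh2 and kdn), compared with 50.5% of all bound genes. Under a stricter assignment, a peak counted for a gene only if no other coding gene started closer. By this rule 7 of the 10 were called, against 27.7% of all genes. Idh3a and Mdh2 passed to CoRest and CG7168. Fum1 was kept through its weaker peak, since the stronger summit was nearer to ND-ASHI. Likewise kdn was kept through its weaker promoter peak, since the stronger promoter summit was nearer to ND-B16.6. This count fell to 4 of 10 in replicate 2 alone (without replicate 3), where Idh3b, Idh3g, Scsalpha1 and ScsbetaA remained and 26.7% of all genes were called. It was 6 of 10 in replicate 3 alone, against 29.5% of all genes. Idh3b, Scsalpha1 and ScsbetaA were bound without a divergent partner.

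The order of the genes by promoter signal was compared between the replicates. Fum1 led in both, followed in both by Idh3b, and kdn was last in both. The replicate ranks of Fum1 (361 to 425) and Idh3b (737 to 857) overlapped neither each other nor those of the gene that followed. Among genes next to each other in this order, the ranges of Idh3a and Idh3g overlapped. So did those of Idh3g and Scsalpha1 and of ScsbetaA and ScsbetaG. In each of these pairs the order changed between the replicates. The ranges of ScsbetaG and Mdh2 also overlapped, but ScsbetaG was the stronger in both replicates. Their ranks were 4651 and 5739 in replicate 2, and 2283 and 3199 in replicate 3. Some genes further apart in the order overlapped as well. The range of Idh3a (1812 to 2538) enclosed that of Scsalpha1 (2282 to 2494), and their order changed between the replicates. In replicate 3 Idh3g (4111) was weaker than ScsbetaA (2844), ScsbetaG and Mdh2, and in replicate 2 (1497) it was stronger than each of them. Of the 11 promoter peaks 10 had a partner in both replicates. The replicate ranks of 5 of these 10 differed by at most 1.24-fold, the median over reproducible peaks. Idh3g (2.75-fold), ScsbetaG (2.04-fold) and Mdh2 (1.79-fold) differed by more than the 90th percentile of 1.71-fold, Idh3g being stronger in replicate 2 and the other 2 in replicate 3.

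**Figure D3:**
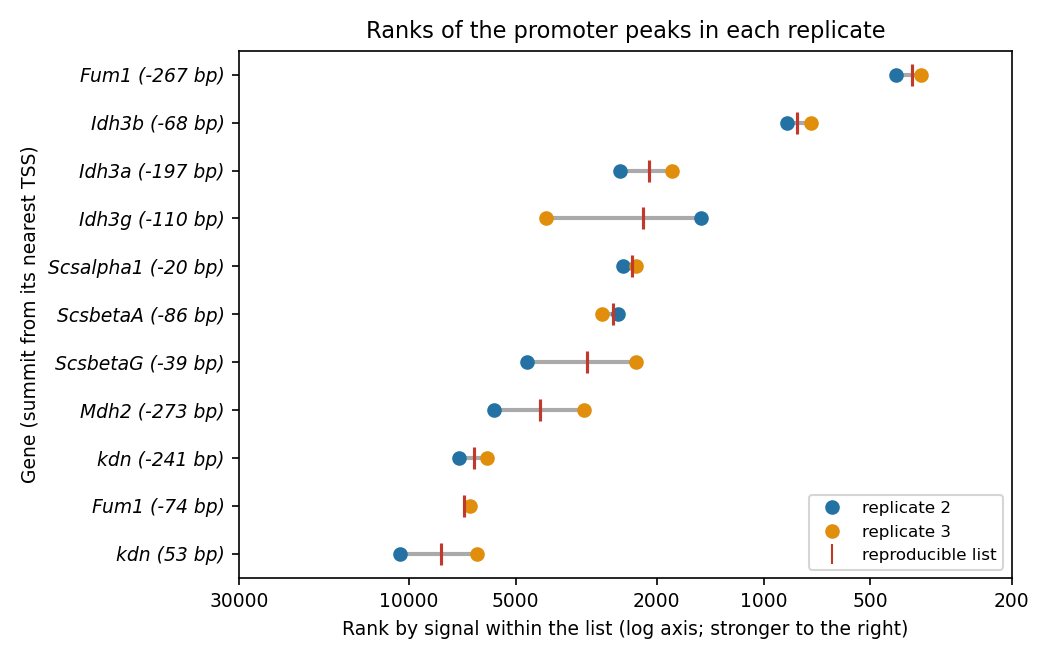
Rank by signal of the 11 reproducible promoter peaks within each list, on a log axis with stronger peaks to the right, with points for replicates 2 and 3 joined by a line and a red mark for the reproducible list. Fum1 (361 to 425) and Idh3b (737 to 857) stand apart, Idh3g spans 1497 to 4111, and the weaker Fum1 peak has no replicate 2 point.

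Further copies of the same enzymes were examined in the same way. Of 10 listed paralogs, CG14740 (a citrate synthase gene), mAcon2, CG3483 and CG32026 (isocitrate dehydrogenase genes), Scsalpha2, Fum2, Fum3, Fum4, and CG10748 and CG10749 (malate dehydrogenase genes), 0 were bound, against 35.2% of all genes. Their nearest reproducible summits lay between 1336 and 60203 bp from a TSS. With the strongest peaks of replicate 3 alone 1 of 10 was called, Scsalpha2 (rank 7712), against 37.4% of all genes. With those of replicate 2 alone 0 of 10 were called, against 34.3%. A divergent coding neighbour was annotated for 3 of the 10. Expression was not measured in these data, and the difference in counts between the main genes and the paralogs was not tested.

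The remaining steps of the cycle were also covered. Of 11 genes for oxoglutarate and succinate dehydrogenase and their copies 7 were bound, namely SdhD (rank 1391), Ogdh (rank 2265), SdhB (rank 3043), CG7430 (dihydrolipoamide dehydrogenase, rank 3512), SdhA, SdhC and CG5214 (dihydrolipoamide succinyltransferase, rank 5778). The 4 that were not bound were the copies SdhAL, SdhBL, CG1544 and CG33791. With replicate 2 alone 6 of 11 were called, without CG5214, and with replicate 3 alone 7. Of all protein-coding genes 35.2% were bound, 34.3% with replicate 2 alone and 37.4% with replicate 3 alone. The median rank of the 7 bound genes was 3512. It was 2342 for the 9 that were bound of the 10 genes, and 3209 over all bound genes.

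**Figure D4:**
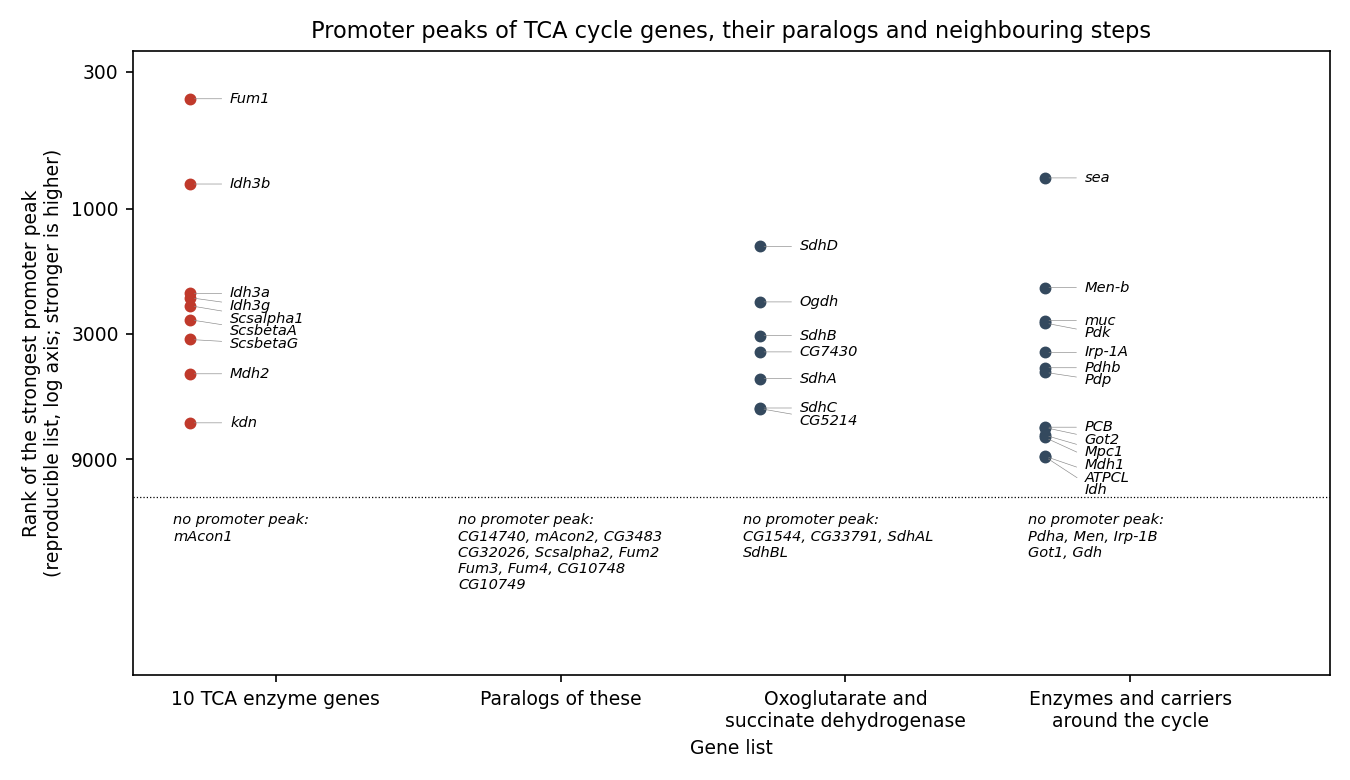
Rank of the strongest reproducible promoter peak of each gene on a log axis, stronger peaks higher, for the 10 genes, their paralogs and the lists of neighbouring steps, with genes lacking such a peak written below the dotted line. Ranks of the 9 bound genes run from 381 to 6545 and mAcon1 has none, while none of the 10 paralogs has a promoter peak in the reproducible list.

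Enzymes and carriers that feed or drain the cycle were bound in 13 of 18 cases, against 35.2% of all genes. The median rank of those bound was 4201, and 3209 over all bound genes. With replicate 2 alone 11 of 18 were called (34.3% of all genes), and with replicate 3 alone 13 (37.4%). The strongest were sea, the citrate carrier of the inner membrane (rank 763, with 832 in replicate 2 and 692 in replicate 3), Men-b, a malic enzyme (rank 1997), muc, the acetyltransferase of pyruvate dehydrogenase (rank 2669), and Pdk, the kinase that inactivates pyruvate dehydrogenase (rank 2725). Not bound were Pdha, the alpha subunit of pyruvate dehydrogenase, Men, Irp-1B, Got1 and Gdh. Pdhb, the partner subunit of Pdha, was bound at rank 4036. Of the cytosolic aconitase-type proteins, Irp-1A was bound (rank 3526) and Irp-1B was not.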

How the data were processed

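Peaks came from ChIP-seq of embryos of 1 line in 2 replicates. Per the deposited description files, the authors called peaks against a control in each replicate and in the pooled replicates, and derived the reproducible list from all 3. Per the labels, the assembly is dm6. The aligner and the peak caller were not given in the sources used here. The deposited signal value of a peak has no stated scale and was used for ranks within a list. The −log10 q value deposited with each peak was carried along and enters no result.

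Gene models and TSSs were those of Ensembl 115 (BDGP 6.54). Sequences were read from RefSeq release 6; the window of 1 promoter summit is not reported here. Peaks of replicates were partnered by any overlap, and the nearest summit was taken. The 10 genes, the other gene lists and the motifs were chosen with earlier results of these data known. All members were named, with every coding gene starting within 500 bp of their promoter summits, up to 4 strongest and the unbound genes of each other list. Pink1 and the neighbours RpL27, enc and bc10, and further bound genes of the lists, were added after their values were seen. Counts were described beside those of all genes, without tests, since the genes were chosen as a list with earlier results known. The alternatives changed the peak list, the replicate, the distance, the TSS, the flank and the length searched for motifs. Gene assignment was tested on simulated summits. Python 3.11.15, NumPy 2.4.6, pandas 2.3.3 and matplotlib 3.10.9 were used.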

Additional observations from a re-analysis of the deposited data

How the results depend on the processing

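The count of bound genes was 9 as reported and 8 or 9 under every alternative, losing kdn among the 4481 strongest peaks and Mdh2 at 250 bp; mAcon1 was called under none. The count of genes with a peak in or within 2 kb was 9 or 10, except 3 without any flank (kdn, Idh3b and Fum1). The promoter summits of the other bound genes lay upstream of the gene, which that setting leaves out. The share of all genes without a flank was not computed. With each peak given to the nearest TSS, 7 genes were called as reported. The count was 5 among the 4481 strongest peaks and 6 with the most upstream TSS only. With a single replicate it was 4 to 6, the 4 being without replicate 3. There ScsbetaG was lost because its summit lay nearer to Sras, Fum1 because its weaker peak was missing, and kdn because its inner peak ranked 10578, outside the strongest 8963. The median rank was 2342 as reported, 2283 to 2538 with a single replicate and 2649 with the most upstream TSS only, where the inner peak of Fum1 no longer counts. No paired analysis was possible because the study has a single group. Depth is unknown, so a missing peak may be one that was not detected.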

Other observations

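Peaks outside the reproducible list were also present at the other gene lists. All 18 enzymes and carriers around the cycle had a summit of some list within 500 bp of a TSS, including the 5 that were not bound. Of those 5, Got1 ranked 9201 in the pooled list, beyond the 8963 reproducible peaks, Men 9773, Irp-1B 10378, Pdha 11596 and Gdh 12430. Of the 11 genes for oxoglutarate and succinate dehydrogenase and their copies, 9 had such a summit. They included the unbound CG1544 (rank 13964 in replicate 2, 9066 in replicate 3 and 10061 in the pooled list). They also included the unbound SdhAL, in replicate 2 only (rank 26460). Among the 10 paralogs, 3 had such a summit, CG32026 in replicate 2 only (rank 19471), Scsalpha2 in replicate 3 (rank 7712) and the pooled list (rank 9728), and Fum3 in replicate 2 (rank 13832) and the pooled list (rank 20072). A summit of some list lay within 500 bp of a TSS at 54.3% of all genes and at 9 of the 10 TCA cycle genes, and a pooled summit of any rank at 47.0% and 9 of 10.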
